A study of Sus scrofa with 4 samples.

Results

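The genes described here are the interferon response genes and the genes of antigen presentation that could be measured in the liver of piglets fed L-carnitine. They were chosen by symbol: swine leukocyte antigen (SLA) genes, genes named IFI, IFIT, IRF, OAS, GBP or STAT, and single genes such as B2M, TAP1, MX1 and ISG15. EIF2AK2 was not counted as a member. The choice gave 45 genes of 6765 with an annotated symbol, through 78 of 23999 probe sets, and each gene was followed by its probe set with the highest mean log2 signal. TAP2 and CXCL10 were not analysed here. IRF2BP1, a protein that binds IRF2, entered by its first letters only.

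The carnitine group was fed a basal diet with 500 mg L-carnitine added per kg and the control group the same basal diet with none added, for 21 days and from an age of 4 weeks. All 16 animals were male crossbred pigs of the cross (German Landrace x Large White) x Pietrain, were 7 weeks old at the end and had their last meal 2.5 h before the liver was taken. Each pool joined the RNA of 4 pigs, and 2 pools per diet were each hybridized to an Affymetrix porcine GeneChip. The spread between pools of a diet is thus the only measure of error, and differences between single pigs cannot be seen.

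Interferons are secreted proteins that warn cells of infection. Type I interferons and interferon gamma bind receptors whose JAK kinases phosphorylate STAT factors, and STAT factors together with interferon regulatory factors (IRF) switch on antiviral effectors such as MX1, OAS1 and the IFIT proteins. Interferon gamma also raises the antigen presentation machinery. MHC class I molecules, in the pig the SLA class I chains with B2M, carry peptides that the TAP transporter brings into the endoplasmic reticulum. Class II molecules, whose genes are switched on by CIITA, are found mainly on macrophages, dendritic cells and B cells, and in the liver on Kupffer cells, its resident macrophages.

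The authors deposited linear MAS5 signals, scaled to a common level, whose array medians lay between 109 and 114. GAPDH control probe sets at the 3' end were 18.7 and 16.1 times as bright as those at the 5' end with carnitine and 12.5 and 11.6 times as bright in control liver, a ratio that depends on how intact the RNA was. The same ratio of the actin control was 157 and 136 with carnitine against 91.2 and 86.7 in control liver, apart like that of GAPDH. That of the EF1A control overlapped, at 23.4 and 29.6 with carnitine against 57.9 and 18.2 in control liver. Where a pool was left out below, the remaining pool of that diet was assumed to vary like the other diet's. Of the 45 members, 39 had a mean signal above 111, the median of all probe sets. The brightness of a probe set depends on its probes, so that signals are compared here between pools and not between genes. All 8 hepatocyte markers, such as ALB, lay above that median. All 8 had a log2 fold change below 0 (median -0.13), but with quantile normalization 5 of the 8 lay above 0, ALB among them at 0.031.

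The interferon response and antigen presentation genes lay on both sides of 0, with a median near that of all probe sets, and no member passed the test after adjustment. An unadjusted p under 0.05 by limma was met by 7 members. Of these, CXCL9, TAP1, IRF7, MX1 and GBP1 gave higher signals in each carnitine pool than in either control pool, by 1.76-, 1.65-, 1.64-, 1.54- and 1.39-fold. IRF2 and the dim SLA-DOA had lower signals in both, with 0.57 and 0.26 times the signal of the control pools. IRF7 and TAP1 each also had a dim probe set of the opposite sign. Fold changes are ratios of geometric mean signals, carnitine over control.
The log2 fold change was positive for 20 of the 45 members and negative for 25. The median was -0.044, beside -0.018 for all probe sets, and was -0.085 without carnitine pool 1, 0.0090 without carnitine pool 2, 0.091 without control pool 1 and -0.050 without control pool 2. In limma, 0 members passed an adjusted p of 0.05 as higher (0.00417% of all probe sets did) and 0 as lower (0.0%). At an unadjusted p under 0.05, 5 members were higher, or 11.1%, beside 4.72% of all probe sets, and 2 were lower, or 4.44%, beside 3.93%. Among the 6765 genes, each by its brightest probe set, the shares were 6.56% and 3.99%.
The pools of the diets did not overlap for 13 members that were higher in the carnitine pools (19.2% of all probe sets were) and for 8 that were lower (20.4%), and they overlapped for 24. A difference of 2-fold or more was seen in 1 member upward, ISG20 (8.03% of all probe sets), and in 1 downward, SLA-DOA (7.92%). Both are dim. The 95% interval of the difference, from limma, held 0 for 38 members, and for 24 members it lay wholly within 2-fold in either direction.

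**Figure D1:**
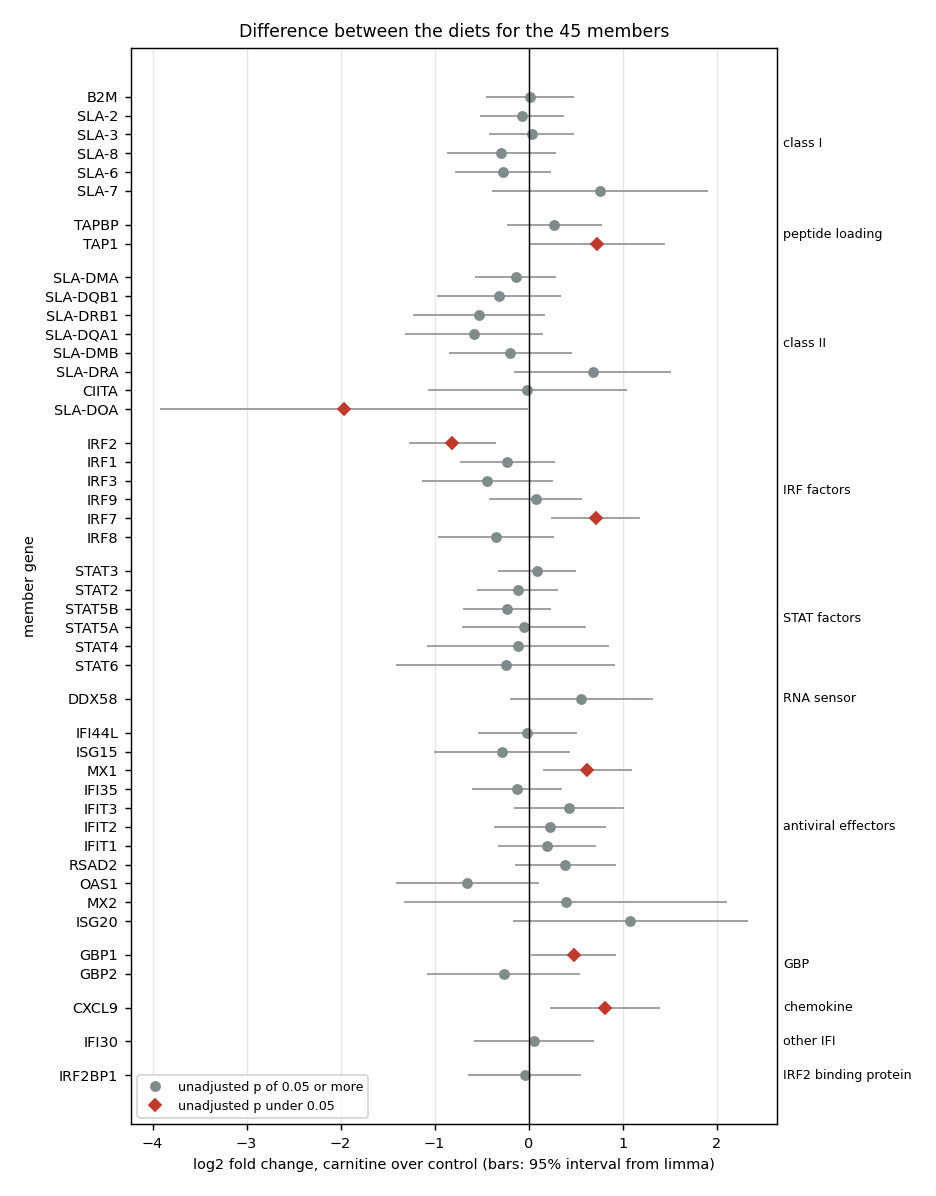
Log2 fold change, carnitine over control, of the 45 members, grouped by role, with the 95% interval from limma as a horizontal bar and red diamonds for an unadjusted p under 0.05. The points scatter on both sides of 0, with 20 above and 25 below, and the widest interval is that of the dim SLA-DOA.

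**Figure D2:**
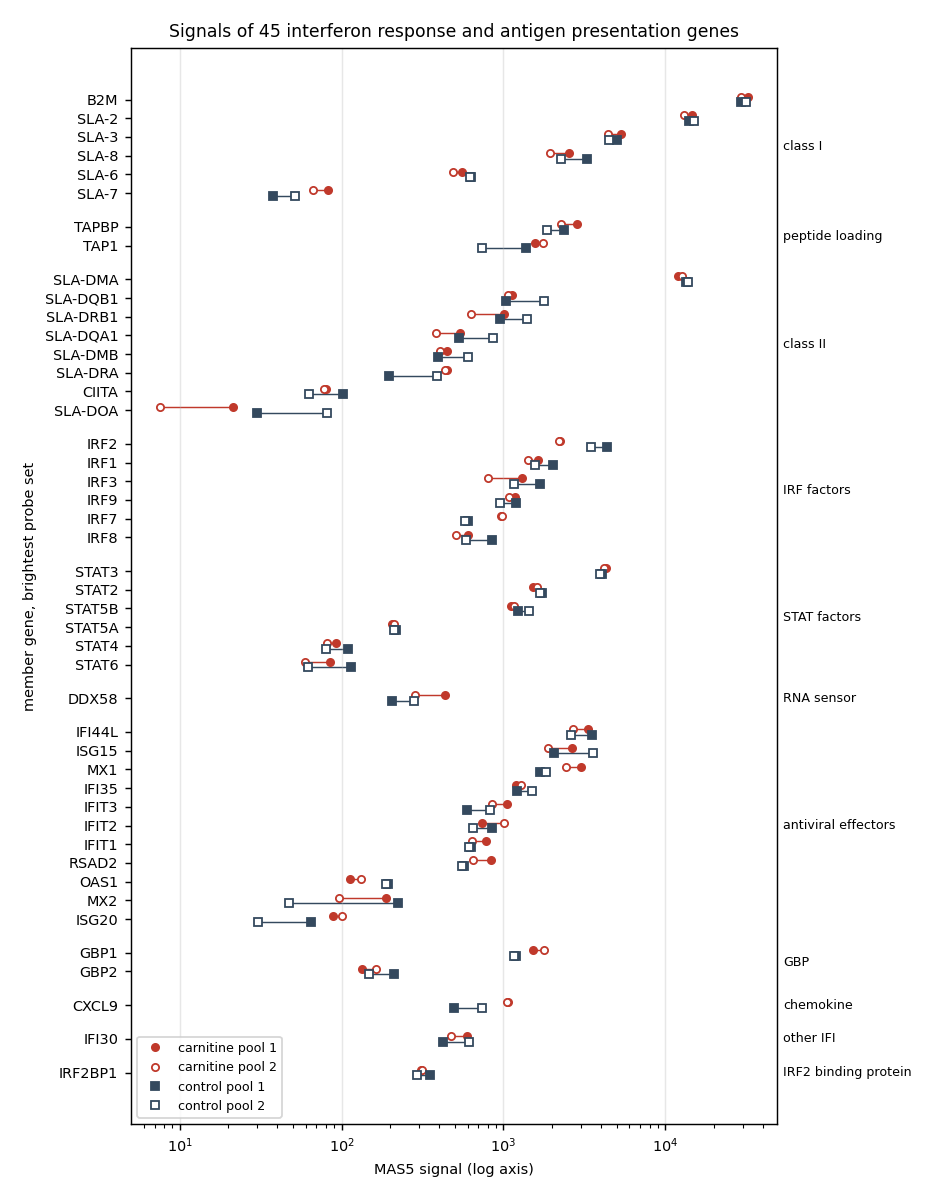
MAS5 signal of each member per pool (log axis), as red circles (carnitine) or dark squares (control), filled for pool 1 and open for pool 2, with lines between pools of the same diet. Circles and squares are apart for 21 members and overlap for 24.

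Among the transcription factors, IRF2 and IRF7 differed in opposite directions. IRF2, which mostly represses interferon-stimulated genes, had signals of 2241 and 2200 in carnitine liver against 4386 and 3465 in control liver. The carnitine pools lay close together and well below both control pools (log2 fold change -0.81, standard error (SE) 0.20, unadjusted p = 0.00421, adjusted p = 0.395 by limma). This was the smallest p of the 45, and IRF2 was the one of the 7 members with an unadjusted p under 0.05 that stayed under it when any of the 4 pools was left out, with log2 fold changes from -0.98 to -0.64. Its other probe sets, which were dim, gave -0.60 and -0.70, and their pools did not overlap either.
IRF7, the factor that amplifies type I interferon production, had signals of 964 and 978 in carnitine liver against 607 and 577 in control liver. Here too the pools of a diet were nearly equal and the diets apart (log2 fold change 0.71, SE 0.20, unadjusted p = 0.00891, adjusted p = 0.421 by limma). The probe set carries the suffix for probes shared between transcripts. The other probe set of IRF7 had signals of 1.71 and 2.13 in carnitine liver against 30.0 and 2.04 in control liver, with a log2 fold change of -2.03, and control pool 1 alone stood apart.
The remaining IRF genes showed overlapping pools. IRF1, an activator of antigen presentation genes, gave 1636 and 1420.4 in carnitine liver against 2033 and 1563 in control liver. IRF3, which responds to viral nucleic acid, gave 1302 and 807 against 1670 and 1157 in control liver. In both genes control pool 1 was the highest of the 4 pools. IRF8, a factor of myeloid cells, and IRF9, a partner of STAT2, had log2 fold changes of -0.35 (SE 0.26) and 0.075 (SE 0.21). All 6 IRF genes were lower in control pool 2 than in control pool 1, with a median difference of -0.36 on the log2 scale. Their median log2 fold change between the diets was -0.29, and it was -0.52 when control pool 2 was left out and -0.056 when control pool 1 was.

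By their brightest probe sets, the STAT factors were nearly level. STAT3, which carries the signal of interleukin-6, had signals of 4324 and 4176 in carnitine liver against 4080.0 and 3930.3 in control liver. STAT2, which joins IRF9 in the type I interferon complex, gave 1521 and 1620.2 against 1729 and 1678 in control liver, and STAT5B, a mediator of growth hormone, 1110.0 and 1159 against 1226 and 1447. In all 3 the pools of the diets did not overlap, but the differences were small, with log2 fold changes of 0.086 (95% interval -0.33 to 0.50), -0.12 (-0.55 to 0.31) and -0.23 (-0.70 to 0.23). The neighbour of STAT5B, STAT5A, gave -0.045, and the dim STAT4 and STAT6 gave -0.11 and -0.25 with overlapping pools. By these probe sets no STAT gene had an unadjusted p under 0.05 by limma. The log2 fold changes of the 6 lay between -0.25 and 0.086. A second, dimmer probe set of STAT5B gave 186 and 171 in carnitine liver against 266 and 285 in control liver. Its log2 fold change was -0.62 (SE 0.28), with an unadjusted p of 0.0593 by limma and 0.0158 by one-factor analysis of variance.

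DDX58, the RNA helicase RIG-I that senses viral RNA, had signals of 438 and 286 in carnitine liver against 206 and 280.0 in control liver. Both carnitine pools were above both control pools, but carnitine pool 2 only just (log2 fold change 0.56, SE 0.32, adjusted p = 0.685 by limma). A second, dim probe set gave 0.11, and its pools overlapped.

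Of the 11 antiviral effectors, 7 lay above 0 on the log2 fold change scale and 4 below (3 with quantile normalization or median centring, where IFI44L turned), their median being 0.22. MX1, a GTPase that blocks virus replication and a common readout of type I interferon, had signals of 3032 and 2419 in carnitine liver against 1677 and 1843 in control liver. The pools did not overlap (log2 fold change 0.62, SE 0.20, unadjusted p = 0.0166, adjusted p = 0.465 by limma), and the value was 0.46 without carnitine pool 1 (unadjusted p = 0.148) and 0.79 without carnitine pool 2. MX2, its neighbour in the genome, did not separate the diets: its pools gave 187 and 96.7 with carnitine against 222 and 47.3 in the control group, which differ more within a diet than between diets. Its log2 fold change was 0.39 (SE 0.73), 1.51 without control pool 1 and -0.72 without control pool 2.
The other effectors went in both directions. ISG15, a ubiquitin-like protein, gave 2655 and 1877 in carnitine liver against 2057 and 3586 in control liver, and IFI44L 3346 and 2703 against 3519 and 2625. Both sets of pools overlapped, with log2 fold changes of -0.28 (SE 0.31) and -0.015 (SE 0.22). ISG15 gave -0.68 without control pool 1 (unadjusted p = 0.0337) and 0.12 without control pool 2.
The IFIT genes, which bind viral RNA and lie next to one another in the RefSeq table of the assembly Sscrofa11.1, had log2 fold changes of 0.43 (IFIT3, SE 0.25), 0.22 (IFIT2, SE 0.25) and 0.19 (IFIT1, SE 0.22). Of their 7 probe sets, 6 lay above 0 and 1, a dimmer one of IFIT2, below at -0.073. For RSAD2, or viperin, signals were 842 and 646 in carnitine liver against 569 and 556 in control liver, with a log2 fold change of 0.39 (SE 0.23). The pools were apart for IFIT3, IFIT1 and RSAD2, higher with carnitine, and overlapped for the brightest probe set of IFIT2. A second probe set of IFIT2 gave 745 and 800 in carnitine liver against 659 and 657 in control liver, apart (log2 fold change 0.23). IFIT3 was apart only just, with 848 in carnitine pool 2 against 826 in control pool 2. It gave 0.20 without control pool 1. The other probe sets of IFIT1 had overlapping pools. None of these 4 genes had an unadjusted p under 0.05. Separate control probe sets read the 3' and 5' ends of RSAD2. The 3' set gave 123 and 67.7 in carnitine liver against 63.3 and 69.9 in control liver, which overlapped. The 5' set gave 41.9 and 49.1 against 68.4 and 139 in control liver, apart and lower with carnitine. Their 3' to 5' ratios were 2.94 and 1.38 with carnitine against 0.926 and 0.503 in control liver. The pools had the same order in the GAPDH and actin ratios but not in the EF1A ratios. The part of RNA integrity in the values of RSAD2 was not tested.
OAS1, the enzyme whose product activates RNase L, ran the other way, with signals of 112 and 131 in carnitine liver against 192 and 189 in control liver (log2 fold change -0.65, SE 0.32, adjusted p = 0.630 by limma). Its pools were apart, and MX1 and OAS1, both type I interferon targets, thus differed in sign. ISG20, an exonuclease with a dim probe set, gave 88.7 and 100.4 in carnitine liver against 65.1 and 30.6 in control liver. Its log2 fold change of 1.08 (SE 0.53, adjusted p = 0.627 by limma) was 0.54 when control pool 2 was left out and 1.62 when control pool 1 was. IFI35 was nearly level at -0.12 (SE 0.20).

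CXCL9, a chemokine that interferon gamma induces and that draws T cells, had signals of 1070.4 and 1051 in carnitine liver against 497 and 733 in control liver. The carnitine pools were nearly equal and above both control pools, with the highest log2 fold change among the 39 members above the median signal (0.81, SE 0.25, unadjusted p = 0.0129, adjusted p = 0.446 by limma). It was 0.53 when control pool 1 was left out and 1.09 when control pool 2 was. GBP1, a guanylate binding protein that acts against intracellular pathogens, had 1529.9 and 1776 against 1198 and 1169 in control liver (log2 fold change 0.48, SE 0.19, unadjusted p = 0.0414, adjusted p = 0.554 by limma). Its other probe sets gave 0.21 each, with overlapping pools in both. GBP2, which lies beside GBP1, gave 134 and 163 against 212 and 149 in control liver, which overlapped (log2 fold change -0.26, SE 0.35). IFI30, a thiol reductase that opens antigens for class II loading, gave 595 and 472 in carnitine liver against 423 and 613 in control liver, and IRF2BP1 gave 308 and 314 against 352 and 292. In both genes the control pools lay on either side of the carnitine pools.

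**Figure D3:**
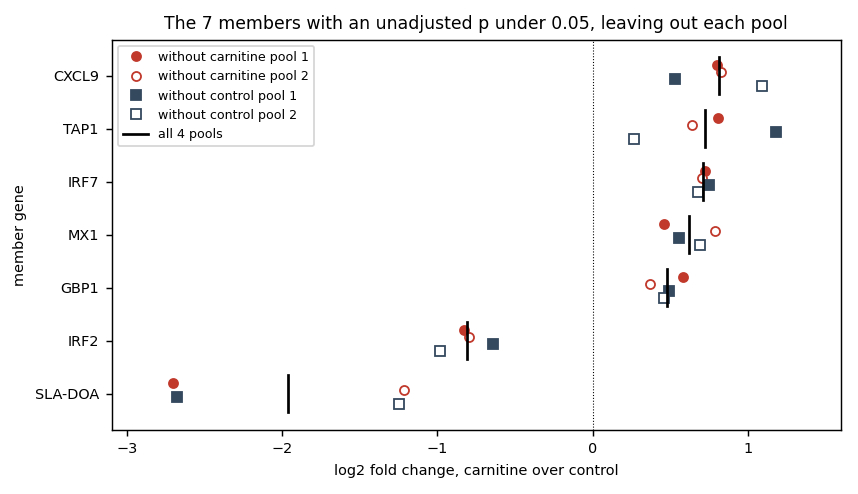
Log2 fold change, carnitine over control, of the 7 members with an unadjusted p under 0.05, with a black line for all 4 pools, red circles without a carnitine pool and dark squares without a control pool, filled where pool 1 and open where pool 2 was left out. All values keep their sign, IRF7 moves least, and TAP1 and SLA-DOA move most, TAP1 to 0.27 without control pool 2.

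In the MHC class I pathway, TAP1 had higher signals in both carnitine pools, while those of B2M and the brighter SLA chains overlapped. TAP1, a subunit of the peptide transporter, had signals of 1577 and 1766 in carnitine liver against 1387 and 736 in control liver. The carnitine pools lay above both control pools, of which pool 2 was far the lower, and the gene met an unadjusted p under 0.05 only at its edge (log2 fold change 0.72, SE 0.31, unadjusted p = 0.0497, adjusted p = 0.577 by limma). The log2 fold change was 0.27 without control pool 2 (unadjusted p = 0.237) and 1.18 without control pool 1 (unadjusted p = 0.00099). TAPBP, or tapasin, which bridges TAP and class I molecules, gave 2833 and 2272 against 2355 and 1868 in control liver, with overlapping pools (log2 fold change 0.27, SE 0.22).
B2M, the light chain of every class I molecule, had signals of 32161 and 29132 in carnitine liver against 29204 and 31473 in control liver. SLA-2 gave 14686 and 12954 against 14073 and 14971 in control liver, and SLA-3 5321 and 4442 against 5033 and 4484. In all 3 the pools overlapped, and the 95% intervals of the log2 fold change were narrow, at -0.46 to 0.48 for B2M, -0.52 to 0.37 for SLA-2 and -0.42 to 0.49 for SLA-3. SLA-6 and SLA-8 gave -0.28 (SE 0.22) and -0.29 (SE 0.25), and SLA-7, a dim probe set, 0.76 (SE 0.49). The pools were apart for SLA-6, lower with carnitine, and for SLA-7, higher with carnitine, and overlapped for the brightest probe set of SLA-8. A second probe set of SLA-8, without a suffix for shared probes, gave 918 and 800 in carnitine liver against 1265 and 975 in control liver. Its pools were apart, lower with carnitine (log2 fold change -0.37, SE 0.22). No class I gene had an unadjusted p under 0.05, and the 6 genes had a median of -0.030. All 6 were lower in carnitine pool 2 than in carnitine pool 1, with a median difference of -0.23 on the log2 scale.
Class I genes are close relatives, and probes for one can bind transcripts of another. The probe set of SLA-2 has the suffix that marks probes binding unlike sequences, that of SLA-8 the suffix for probes shared between transcripts and that of SLA-3 the suffix for several transcripts of a gene. In all, 7 of the 45 members are read through a probe set with such a suffix, and 10 further probe sets that list a symbol of this kind among several were left out. The values of single class I genes are uncertain to that extent.

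B2M has 9 annotated probe sets, and they disagreed. In 7 of them the log2 fold change lay between -0.21 and 0.30. One gave 1354 and 1464 in carnitine liver against 632 and 691 in control liver, a log2 fold change of 1.09 (SE 0.20, unadjusted p = 0.00081), and another 14470 and 8752 against 16333 and 22952 in control liver, a log2 fold change of -0.78 (SE 0.30, unadjusted p = 0.0320). Whether every one of these probe sets detects B2M was not tested. Over the 18 members with several probe sets, the sign of the log2 fold change was shared by all of a gene's probe sets in 10 genes and mixed in 8, among them IRF7, TAP1, MX2 and IFI44L. The mean over its 3 probe sets was 0.041 for TAP1, whose dim ones gave -1.23 and 0.63. A dim probe set of MX2 gave -1.74 (SE 0.71), and those of IFI44L other than the brightest 1.20 and -0.35. The second probe set of STAT5B gave -0.62 (SE 0.28) with pools apart, lower with carnitine like the brightest.

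**Figure D4:**
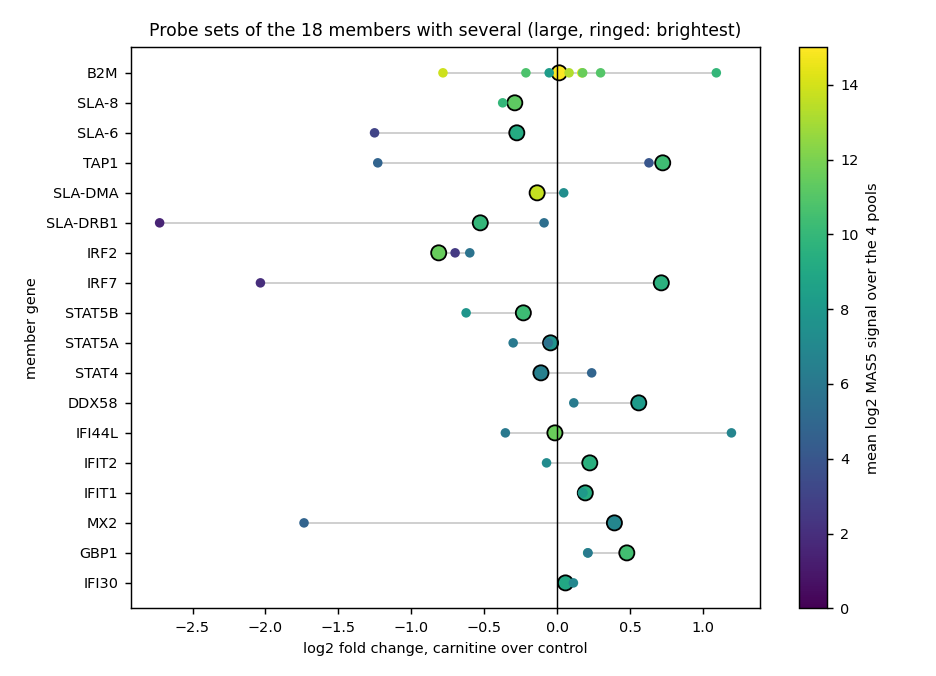
Log2 fold change, carnitine over control, of every probe set of the 18 members with several, a row per gene, coloured by mean log2 signal, with a large ringed point for the brightest probe set, on which the values of the gene rest. The 9 probe sets of B2M spread from -0.78 to 1.09, and the far points of SLA-DRB1, IRF7, MX2 and TAP1 are dim.

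Most MHC class II genes differed at least as much between the 2 control pools as between the diets. Of 8 genes, 7 had a log2 fold change below 0 (6 with quantile normalization or median centring, where CIITA turned), with a median of -0.25, and 0 passed an adjusted p, while 7 of the 8 were also higher in control pool 2 than in control pool 1, by a median over the 8 of 0.66 on the log2 scale. Over all probe sets that median was -0.031. SLA-DQB1 had signals of 1123 and 1062 in carnitine liver against 1030.1 and 1788 in control liver, and SLA-DRB1 1003 and 634 against 946 and 1396. SLA-DQA1 gave 537 and 382 against 529 and 863 in control liver. In these 3 chains of the surface molecules control pool 2 was the highest of the 4 pools, and the diets overlapped.
Without control pool 1 the log2 fold changes of SLA-DQA1, SLA-DRB1 and SLA-DQB1 were -0.93, -0.81 and -0.71 (unadjusted p = 0.0153, 0.0361 and 0.0112), and without control pool 2 they were -0.22, -0.25 and 0.084. The median of the class II genes was -0.61 when control pool 1 was left out and -0.17 when control pool 2 was. SLA-DRA, the partner chain of SLA-DRB1, went the other way, with 450.2 and 435 in carnitine liver against 196 and 389 in control liver. Its log2 fold change of 0.68 (SE 0.35, adjusted p = 0.647 by limma) was 0.19 when control pool 1 was left out and 1.18 when control pool 2 was. The chains of this heterodimer thus differed in sign.
SLA-DMA, which with SLA-DMB loads peptides onto class II, had signals of 11994 and 12658 in carnitine liver against 13359 and 13744 in control liver. Its pools were apart, though by little (log2 fold change -0.14, 95% interval -0.57 to 0.29). SLA-DMB gave -0.19 (SE 0.28) and CIITA, the master activator of class II genes, -0.013 (SE 0.45), both with overlapping pools. SLA-DOA, part of a brake on peptide loading, gave 21.4 and 7.61 in carnitine liver against 30.2 and 81.6 in control liver. Its log2 fold change of -1.96 (SE 0.83, unadjusted p = 0.0493, adjusted p = 0.577 by limma) was -1.22 without carnitine pool 2, -2.71 without carnitine pool 1, -2.68 without control pool 1 and -1.25 without control pool 2. The probe set is dim, with 26.0% of all probe sets below it, and the difference was -0.94 with dim signals floored at the 25th percentile and -0.58 with 64 added to every signal.

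**Figure D5:**
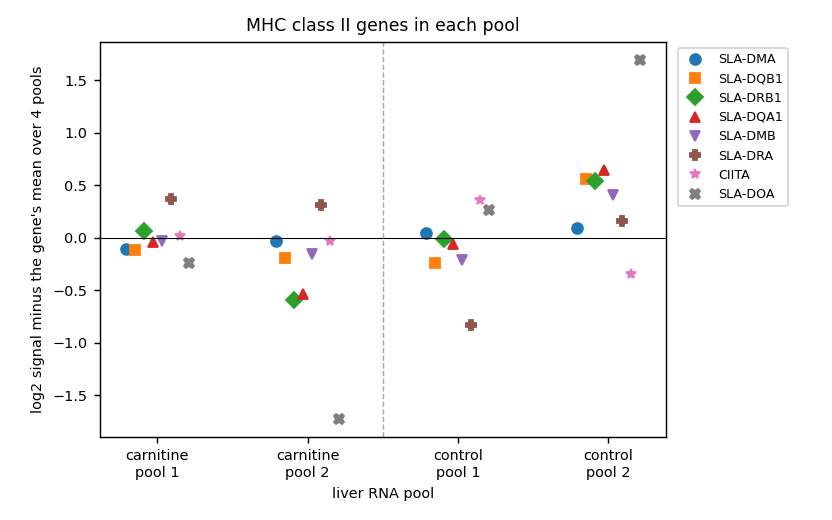
Log2 signal of the 8 MHC class II genes in each liver RNA pool, minus the gene's mean over the 4 pools, with carnitine pools left of the dashed line and control pools right of it. SLA-DQB1, SLA-DRB1, SLA-DQA1, SLA-DMA, SLA-DMB and SLA-DOA are highest in control pool 2, and SLA-DRA is lowest in control pool 1.

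Summed over each list, markers of the cells that carry class II molecules were highest in control pool 1, while single markers differed in this. The summed signal of the 11 macrophage and Kupffer cell markers measured of 16 listed was 7254 and 6203 in carnitine liver against 8220.0 and 7670 in control liver, with 4 markers lower in both carnitine pools and 2 higher. That of 6 of 9 dendritic cell markers was 640.4 and 625 against 697 and 622 in control liver. For CD79B and JCHAIN, 2 of 8 B and plasma cell markers, it was 1590 and 1862 in carnitine liver against 2753 and 1521 in control liver. For 5 of 6 markers of all leukocytes it was 2446 and 2020.5 against 3082 and 2115 in control liver. Sums rest mainly on the brightest markers. C1QA and FCER1G of the macrophage list and CD80 and CD40 of the dendritic list were highest in control pool 2, as most class II genes were, and the median signal of the dendritic list was 77.6 and 92.5 in carnitine liver against 91.8 and 107.7 in control liver.
The 12 of 18 T and NK cell markers measured summed to 1744 and 1356 in carnitine liver against 2773 and 1633 in control liver, with 8 of 12 below 0. The 7 of 8 endothelial markers measured summed to 3745 and 2448 against 2923 and 5319 in control liver, where pool 2 was the highest, as in the class II genes. None of these markers is listed at 0 in any pool. In bulk liver RNA, fewer cells of a type and less RNA per cell cannot be told apart, and the part of these cells in the values of the class II genes and of CXCL9 was not tested.

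Other genes of the interferon and antigen presentation pathways gave a like picture. Of 58 measured genes outside the members, 28 lay above and 30 below 0, with a median log2 fold change of -0.0042, and 0 passed an adjusted p. At an unadjusted p under 0.05, 2 of the 58 were higher, SOCS1 and EIF2AK2, beside 4.72% of all probe sets. Lower were 2, PTPN2 and MAVS, beside 3.93%. EIF2AK2, the kinase PKR that halts translation in infected cells, had signals of 888 and 783 in carnitine liver against 568 and 457 in control liver (log2 fold change 0.71, SE 0.23, adjusted p = 0.461 by limma).
The feedback inhibitors of JAK signalling were split. SOCS1, itself induced by interferon, gave 221 and 147 in carnitine liver against 71.4 and 110.5 in control liver, 1.02 on the log2 scale (SE 0.41, adjusted p = 0.552 by limma). PTPN2, a phosphatase that removes phosphate from JAK and STAT proteins, gave 344 and 311 against 738 and 485 in control liver, -0.87 on the log2 scale (SE 0.28, adjusted p = 0.461 by limma). The pools of both genes were apart. SOCS1 gave 0.71 and PTPN2 -0.57 without control pool 1, and 1.34 and -1.17 without control pool 2. MAVS, the adaptor of RIG-I, was read at signals of 2.82 and 3.52 in carnitine liver against 28.6 and 32.6 in control liver. These lie in the dimmest part of the array, where signals vary most.
The receptor subunits IFNAR1 and IFNGR1 also had non-overlapping pools, higher with carnitine, with log2 fold changes of 0.52 (SE 0.35) and 0.44 (SE 0.26). So did IL10RB, with dim signals of 61.8 and 29.4 in carnitine liver against 26.9 and 16.5 in control liver (log2 fold change 1.02, SE 0.68). Of all probe sets, 19.2% had such pools. In the same list interferon gamma itself, IFNG, had non-overlapping pools the other way, with dim signals of 26.13 and 25.03 in carnitine liver against 68.33 and 26.99 in control liver (log2 fold change -0.75, SE 0.67), and IFNA1 gave -0.45 (SE 0.49). Among 10 JAK kinases and inhibitors 7 lay below 0, and among 17 other interferon-stimulated genes 10 lay above 0. The 7 genes of the immunoproteasome and class I loading had a median of 0.24, with PSMB8 and PSMB10 at 0.24 (SE 0.22) and 0.30 (SE 0.21). The pools were apart for 3 genes of that list that were higher with carnitine, PSMB8, PSMB10 and PDIA3. PDIA3 gave 0.49 (SE 0.25), and 0.16 without control pool 1. PSMB8 was apart only just, with 1041.6 in carnitine pool 2 against 1041.1 in control pool 2. The pools were also apart for 2 genes that were lower, the proteasome activators PSME1 and PSME2, at -0.12 (SE 0.18) and -0.27 (SE 0.21). The 8 genes of class II loading had a median of -0.090. In the class II loading list, CD74, the invariant chain of class II, gave 305 and 340 in carnitine liver against 294 and 438 in control liver. As in most class II chains, control pool 2 was the highest of the 4.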

How the data were processed

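RNA of pig liver was measured on 4 Affymetrix porcine GeneChips, 2 pools per diet. Each deposited value is a linear MAS5 intensity of a probe set. Per the submitters' processing notes, MAS5 5.0, GCOS 1.1.2 and Affymetrix Expression Console 1.1 were used. The number of arrays limits the precision, with 2 residual degrees of freedom.
Log2 signals were used without a pseudocount. After 124 controls were left out of 24123 probe sets, 23999 were fitted with limma 3.58.1 in R 4.3.3 (lmFit, eBayes with a variance trend), carnitine minus control, with two-sided p-values adjusted by the Benjamini-Hochberg method over all probe sets. The fit shares the spread over all probe sets by signal, so that an SE is not the spread of a gene's own pools alone. For IRF7 the unadjusted p was 0.00891 by limma and 0.00290 by one-factor analysis of variance. For MX1 it was 0.0166 and 0.0719. The fit was tested on simulated data. The smallest two-sided p of an exact permutation test is 0.333 at this size. The labels number the pools as biological replicates.
Symbols came from the platform annotation, in part outdated. It names 1 gene for 10069 probe sets, more than 1 for 198 and no gene for 13732. The RefSeq table of Sscrofa11.1 was used for the order of neighbouring genes only. Gene sequences were not used here.
Members and gene lists were chosen with earlier results of these data known. Values in every pool are given for members with an unadjusted p under 0.05 and for those with non-overlapping pools at 2-fold. They are also given for the 3 brightest of each role group. Those of OAS1, RSAD2, MX2, SLA-DRA, SLA-DQA1, CD74 and the B2M probe sets were added after their values were seen. So were those of the RSAD2 control probe sets and of the second probe sets of IFIT2, SLA-8 and STAT5B. Of the other lists, genes with an unadjusted p under 0.05 are named. IFNAR1, IFNGR1, IL10RB, IFNG, IFNA1, PSMB8, PSMB10, PDIA3, PSME1 and PSME2 were added in the same way. Alternatives were quantile normalization, median centring, a floor at the 25th percentile, an offset of 64, a filter at the median signal, no variance trend, one-factor analysis of variance, as in the methods, a block for the replicate numbers, omission of each pool, the mean over a gene's probe sets, and probe sets without a suffix.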

Additional observations from a re-analysis of the deposited data

How the results depend on the processing

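The number of members past an adjusted p was 0 in both directions under all 14 alternatives, and the smallest adjusted p of a member over them was 0.143, without control pool 1. The number with an unadjusted p under 0.05, 5 higher and 2 lower, depended on the setting. The lower count was 1 with quantile normalization, with arrays centred on their medians, with signals raised to the 25th percentile and with 64 added, where SLA-DOA was lost. With quantile normalization and with 64 added TAP1 was lost too (unadjusted p = 0.0594 and 0.0631), leaving 4 higher. With only probe sets above the median signal the counts were 3 and 1, with no variance trend 1 and 1, with the mean over the probe sets of a gene 2 and 1 (IRF2 at -0.70, unadjusted p = 0.0961), and with the one-factor analysis of variance 2 higher. Leaving out a pool changed the counts as well, but such a fit has 1 pool in a diet, and its counts are not given here. The share of all probe sets called was not counted under the alternatives, so these counts cannot be set beside it. The median log2 fold change of the members ranged from -0.085 to 0.091 when a pool was left out. IRF7, 0.71 by its brightest probe set, was -0.66 as the mean over its probe sets and -2.03 by the probe set without a suffix, both resting on a dim probe set. The other 6 members with an unadjusted p under 0.05 kept their sign under every alternative, except that SLA-DOA is too dim for the filter at the median signal and had no value there. The labels do not say that a replicate number marks shared animals or days. Deviations of same-numbered pools correlated at 0.0049 over all probe sets, and with the replicate block 4 members were higher and 2 lower at an unadjusted p, GBP1 being lost. Dim signals and 2 pools per diet limit what can be seen: 6 members lie below the median signal.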
